A study of Mus musculus with 12 samples.

Results

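The 5 genes of the lysyl oxidase family (Lox, Loxl1, Loxl2, Loxl3 and Loxl4) and 5 genes for parts of the elastic fibre (Eln, Fbn1, Mfap5, Fbln5 and Efemp2) were followed in mouse fat cell cultures that had received a let-7 microRNA. The genes were chosen by name, by matching the Ensembl identifiers of the count table to these symbols, and all 10 were present among its 15754 genes. RNA had been sequenced from white adipocytes differentiated in culture from cells of the stromal vascular fraction of epididymal fat, the part of the tissue that holds fat cell precursors along with vessel and immune cells. Wild-type male C57BL/6 mice, aged 8 weeks and kept on chow, were the source for every group. All cultures were induced with rosiglitazone (1 µM), dexamethasone (1 µM), insulin (850 nM) and IBMX (250 µM), a phosphodiesterase inhibitor, and rosiglitazone and insulin stayed in the later medium. On day 4 they were transfected with a negative control, a let-7d-5p mimic or a let-7e-5p mimic, and RNA was taken on day 7. A mimic is a synthetic RNA that acts as the microRNA does, so its level need not match that of the cell's own let-7.

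Each of the 3 groups had 4 libraries. Replicates 1 and 2 carry one series of sample identifiers (ID run 1) and replicates 3 and 4 another (ID run 2), and the labels do not say what separates the runs. The total was 15071299 to 33396316 counts per library. Markers of fat cells, led by Fabp4 and Lpl, were present in every library, with a summed level of 22140 to 24180 CPM, counts scaled to the library total, in run 1 and 4999 to 7080 in run 2. Every comparison between groups below therefore has the run as a term in the model. The labels do not state whether replicates are separate cultures or animals, and the p-values therefore speak of the library-to-library spread alone, part of which may be technical.

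Lysyl oxidases are secreted, copper-dependent enzymes that oxidise lysine side chains in collagen and tropoelastin, and the aldehydes formed then condense into the cross-links that hold these fibres together. An elastic fibre has a core of cross-linked elastin laid on a scaffold of fibrillin microfibrils, and small glycoproteins of the fibulin family bring tropoelastin and the enzymes to that scaffold. In fat, collagen and elastic fibres surround the adipocytes and the vessels, and their stiffness bears on how far the tissue can expand.

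The mature sequences of the mimicked microRNAs are shown because their common seed, bases 2 to 8 from the 5′ end, is what pairs with a target. The seed is in capitals, and the sequences are those of RefSeq for GRCm38.p6.
mmu-let-7d-5p: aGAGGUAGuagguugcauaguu
mmu-let-7e-5p: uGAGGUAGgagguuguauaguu
They come from chr13:48536078-48536099 on the minus strand and chr17:17830366-17830387 on the plus strand. The seed GAGGUAG is the same in both. Counted from the 5′ end, with the let-7d base first, they differ by A1U, U9G and C16U, all outside the seed.

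Matches to the seed were sought on the sense strand of each member's 3′ UTR and coding sequence in the GENCODE vM21 annotation, as the 8mer CTACCTCA, the 7mer-m8 CTACCTC or the 7mer-A1 TACCTCA, the last 2 counted only where no 8mer covers them. Of the 10 members, 4 had such a match in the 3′ UTR, against 17.0% of the 13547 tested genes with an annotated 3′ UTR. The share over genes rose with 3′ UTR length, from 5.79% at up to 1000 bases to 16.4% at up to 2000 and 33.9% above that. Each of the 4 sites is shown with its surroundings, in transcript sense and with the match in capitals.
Loxl3 3′ UTR: caggggtctgaggctgccatTACCTCAgga
Loxl4 3′ UTR: agctctgctcacacaccagaTACCTCAgct
Efemp2 3′ UTR: agggagttctgaagagtatgTACCTCAggt
Fbln5 3′ UTR: tgaaggaccaggctcctatcCTACCTCttg
The matches lie at chr6:83050937-83050943 (plus strand, base 64 of 1689 of the Loxl3 3′ UTR), chr19:42595289-42595295 (minus strand, base 39 of 1352 in Loxl4), chr19:5482187-5482193 (plus strand, base 465 of 795 in Efemp2) and chr12:101749189-101749195 (minus strand, base 1547 of 4177 in Fbln5). A coding sequence match was found in 2 members, against 19.4% of genes. Fbn1 had 3, of which 1 is an 8mer near the end of the reading frame, at base 8562 of 8622 and chr2:125301639-125301646 on the minus strand.
Fbn1 coding 8mer: aagacagatatgacaaagaCTACCTCAgtg
Fbln5 had 1 coding match beside that in its 3′ UTR. The 3′ UTRs of Loxl1, Loxl2, Eln, Fbn1, Mfap5 and Lox held none of the 3 motifs. A match is a description of the letters and not a measured site.

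With let-7d, 7 of the 10 members were called changed at an adjusted p under 0.05 (edgeR quasi-likelihood test, two-sided, adjusted over all genes). Eln, Loxl2, Loxl4, Loxl3, Fbn1 and Fbln5 fell and Mfap5 rose. With let-7e, 6 members were called: Eln, Loxl4, Loxl2 and Fbn1 fell, and Mfap5 and Lox rose. Among all genes, 9.81% were called lower and 6.41% higher with let-7d, and 5.69% lower and 3.81% higher with let-7e. The median log2 fold change of the members was -0.30 with let-7d and -0.14 with let-7e, against -0.0022 and -0.0019 over all genes. Leaving out control replicate 2 reduced the members called with let-7e to 3. Both mimics were compared with the same 4 control libraries, so their values stand side by side here and are not independent.

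**Figure D1:**
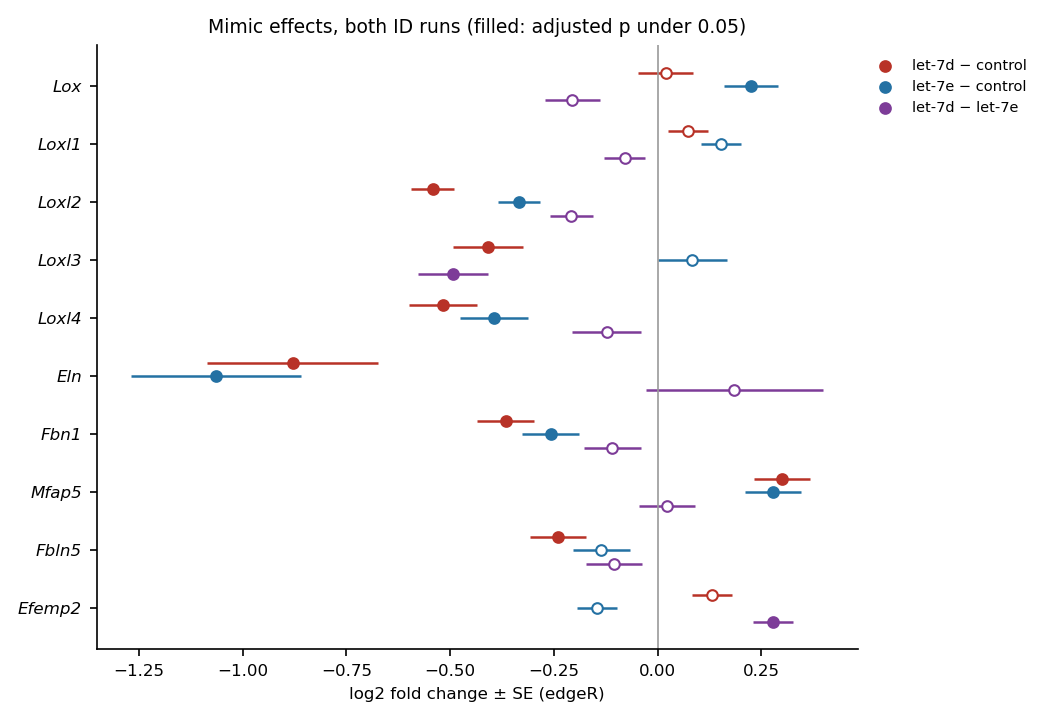
Each point is a member's log2 fold change with its SE over both runs, for let-7d against control (red), let-7e against control (blue) and let-7d against let-7e (purple), filled where the adjusted p is under 0.05. Eln, Loxl2, Loxl4 and Fbn1 lie left of 0 with both mimics and Mfap5 lies right of it, while Loxl3 and Efemp2 are filled in the direct comparison of the mimics.

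A cruder reading asked whether the mimic libraries lay wholly above or wholly below the control libraries in both runs. With let-7d this held for 8 members, lower for Loxl2, Loxl3, Loxl4, Eln, Fbn1 and Fbln5 and higher for Mfap5 and Efemp2, and it held for 23.8% of all genes. With let-7e it also held for 8 members, lower for Loxl2, Loxl4, Eln, Fbn1 and Efemp2 and higher for Lox, Loxl1 and Mfap5, against 19.1% of all genes.

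**Figure D2:**
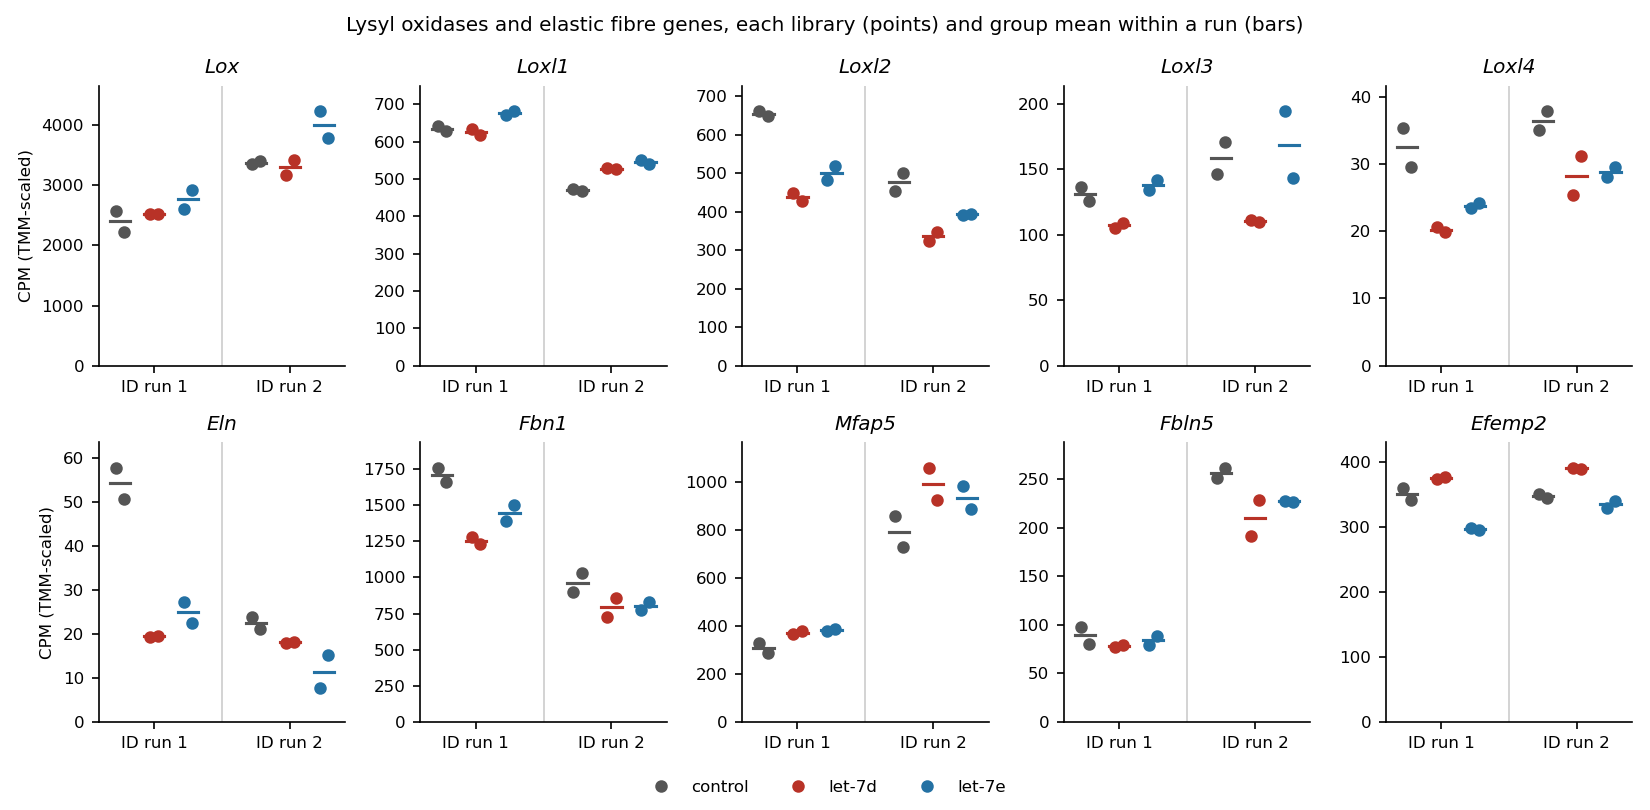
Each point is 1 library and each bar the mean of a group within a run, in CPM scaled by the trimmed mean of M-values (TMM), on an axis from 0. The control points of Eln stand at 50.8 and 57.9 CPM in run 1 and at 21.1 and 23.8 CPM in run 2, each pair above all mimic libraries of its own run.

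To compare genes with each other, CPM were divided by the length of a gene's exons in kilobases (kb). On that scale Lox was the highest member in every control library, with a mean of 605 CPM per kb over 4 libraries, and Eln, at 4.74, was the lowest in each. The order between them depended on the run. In run 1 the control means, over 2 libraries each, were 503 CPM per kb for Lox, 193 for Loxl1, 141 for Fbn1, 121 for Loxl2, 92.5 for Efemp2, 85.6 for Mfap5, 28.45 for Loxl3, 12.9 for Fbln5, 7.71 for Loxl4 and 6.71 for Eln. The libraries of Efemp2 and Mfap5 overlapped there, as did those of Loxl4 and Eln, and other neighbours did not. In run 2 Mfap5 came second, with 221 CPM per kb against 707 for Lox and 142 for Loxl1, and Fbn1 at 79.7 fell behind Efemp2 at 91.7 and Loxl2 at 88.4. Fbln5 at 37.1 CPM per kb stood beside Loxl3 at 34.4 in that run, followed by Loxl4 at 8.65 and Eln at 2.77. Ranges overlapped between Efemp2 and Loxl2, between Loxl2 and Fbn1 and between Fbln5 and Loxl3. Within each control library of run 2, Loxl2 was above Fbn1 and Fbln5 above Loxl3, while Efemp2 and Loxl2 changed places. These orders were not tested.

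Loxl2 (chr14:69609068-69695834, plus strand) encodes a lysyl oxidase with scavenger receptor domains that is known to cross-link type IV collagen of basement membranes. Run 1 libraries held 661 and 648 CPM in control, 448 and 428 with let-7d and 482 and 518 with let-7e. Run 2 had 453 and 502 CPM in control, 325 and 348 with let-7d and 392.2 and 395.1 with let-7e. Within each run the order was control, then let-7e, then let-7d, and no 2 groups overlapped. The log2 fold change was -0.54 ± 0.051 (SE) with let-7d (edgeR adjusted p = 9.27e-06) and -0.33 ± 0.051 with let-7e (adjusted p = 0.000686). Its 3′ UTR has no 7mer or 8mer match. The difference between the mimics, -0.21 with a 95% interval of -0.33 to -0.090 from the model's SE, missed the threshold over all genes (edgeR adjusted p = 0.143). It passed with DESeq2 (adjusted p = 0.0088) and when only the libraries of the 2 mimics were fitted with edgeR (adjusted p = 0.0433).

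Loxl4 (chr19:42593982-42612813, minus strand), a close relative of Loxl2 with the same domain plan, was the least abundant of the family. Its control libraries held 35.4 and 29.6 CPM in run 1 and 35.03 and 37.83 in run 2. With let-7d they held 20.6 and 19.8 CPM, then 25.4 and 31.1, and with let-7e 23.4 and 24.2 CPM, then 28.0 and 29.6. Every mimic library lay below both control libraries of its run. Loxl4 fell by 0.52 ± 0.082 (SE, log2) with let-7d (edgeR adjusted p = 0.000535) and by 0.39 ± 0.081 with let-7e (adjusted p = 0.00607), and the mimics differed by -0.12 with an interval of -0.31 to 0.067.

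Loxl3 (chr6:83034173-83052562, plus strand), which is known for cross-linking in cartilage and muscle attachments, changed with one mimic. In run 1 levels were 136 and 126 CPM in control, 105 and 109 with let-7d and 134 and 142 with let-7e. The run 2 libraries stood at 146 and 171 CPM in control, 111 and 110 with let-7d and 194 and 143 with let-7e. The 4 let-7d libraries lie close together below all controls, and the let-7e libraries overlap the controls in both runs. The log2 fold change was -0.41 ± 0.085 with let-7d (edgeR adjusted p = 0.00383) and 0.08 ± 0.084 with let-7e (adjusted p = 0.617).

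The difference of Loxl3 between the mimics was itself tested, at -0.49 ± 0.084 (SE, log2; edgeR adjusted p = 0.0394). Loxl3 and Efemp2 were 2 of only 24 genes called between let-7d and let-7e, 0.152% of all genes. The Loxl3 call is near the threshold. Its adjusted p by edgeR was 0.0981, 0.120, 0.101 and 0.144 without let-7d replicates 1, 2, 3 and 4 in turn. It was 0.0618, 0.186 and 0.103 without let-7e replicates 1, 2 and 3, and the difference was then -0.38 without let-7e replicate 3, the library with 194 CPM. The difference kept its sign in every one of the 12 libraries left out, from -0.56 to -0.38. Of the 4603 exon bases of Loxl3, 535 are shared with Htra2 on the opposite strand. Whether reads were counted by strand is not given in the sources used here.

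Lox (chr18:52516067-52529867, minus strand), the founding enzyme of the family, was the most abundant and rose with let-7e. The run 1 values were 2580 and 2230 CPM in control, 2530 and 2520 with let-7d and 2600 and 2930 with let-7e. Values in run 2 were 3360 and 3400 CPM in control, 3180 and 3430 with let-7d and 4230 and 3790 with let-7e. All let-7e libraries were above the controls of their run, in run 1 by a small margin, and the let-7d libraries overlapped the controls. The log2 fold change was 0.22 ± 0.066 with let-7e (edgeR adjusted p = 0.0416) and 0.02 ± 0.066 with let-7d (adjusted p = 0.885, interval -0.13 to 0.17).

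The let-7e call on Lox rests on the whole set of libraries. The edgeR adjusted p rose to 0.0981, 0.0729 and 0.0630 without control replicates 2, 3 and 4, and to 0.0579, 0.0561 and 0.0545 without let-7d replicates 1, 2 and 4. It rose to 0.133, 0.123 and 0.0667 without let-7e replicates 2, 3 and 4. With only the control and let-7e libraries fitted it was 0.0692. The fold change itself stayed between 0.18 and 0.27 on the log2 scale.

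Loxl1 (chr9:58287738-58313186, minus strand), the family member known to be needed for elastic fibre upkeep in adult tissues, was not called with either mimic. It ranged from 467 to 641 CPM in control, 526 to 634 with let-7d and 541 to 681 with let-7e. In run 2 both let-7d (529 and 526 CPM) and both let-7e libraries (550 and 541) were above the controls (472 and 467), and in run 1 only the let-7e libraries were (672 and 681 against 641 and 629). The log2 fold change was 0.07 ± 0.048 with let-7d (edgeR adjusted p = 0.337) and 0.15 ± 0.048 with let-7e (adjusted p = 0.0584). The let-7e value passed with DESeq2 (adjusted p = 0.0154), with limma-voom (adjusted p = 0.0456), with genes under a mean of 1 CPM left out (edgeR adjusted p = 0.0441) and without control replicate 1 (edgeR adjusted p = 0.0350). Thus 1 of 5 oxidases was called higher and 2 lower with let-7e, where 3.81% of all genes were called higher and 5.69% lower. With let-7d none was called higher and 3 lower, where 6.41% of all genes were called higher and 9.81% lower.

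Elastin itself (Eln, chr5:134702593-134747323, minus strand), whose soluble form tropoelastin is the substrate of the oxidases, was the least abundant member per length and had the largest log2 fold changes of the 10. In run 1 the control libraries held 57.9 and 50.8 CPM, the let-7d libraries 19.4 and 19.6, and the let-7e libraries 27.4 and 22.5. In run 2 the control libraries held 23.8 and 21.1 CPM, the let-7d libraries 17.9 and 18.3, and the let-7e libraries 7.69 and 15.2. Every mimic library was below both controls of its run, although the let-7e libraries of run 1 reached above the controls of run 2. Eln fell by 0.88 ± 0.21 (SE, log2) with let-7d (edgeR adjusted p = 0.00872) and by 1.06 ± 0.20 with let-7e (adjusted p = 0.00392). Both calls held whichever of the 12 libraries was left out, with adjusted p up to 0.0429 and 0.0211. The 3′ UTR and coding sequence of Eln hold no 7mer or 8mer match.

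The size of the let-7d difference in Eln was unlike between the runs. Within run 1 it was -1.48 ± 0.19 (edgeR adjusted p = 0.000345) and within run 2 -0.31 ± 0.19 (adjusted p = 0.362), against let-7e differences of -1.121 ± 0.19 and -1.002 ± 0.20. The test of the difference between runs gave 1.17 ± 0.27 with a 95% interval of 0.50 to 1.84, an unadjusted p of 0.000726 and an edgeR adjusted p of 0.0817, in a comparison where 0.241% of all genes were called. Without let-7e replicate 3 the adjusted p was 0.0113 and without let-7e replicate 4 it was 0.0112, at the same size, while it was up to 0.318 without other libraries. For let-7e the same test gave 0.12 ± 0.27 (edgeR adjusted p = 0.931), in a comparison where 0.00635% of genes were called. No member was called in either test, and 3 members with let-7d (Eln, Loxl1 and Loxl4) and 1 with let-7e (Efemp2) had an unadjusted p under 0.05 in edgeR. Between the mimics Eln differed by 0.18 with an interval of -0.31 to 0.68 over both runs, by -0.36 within run 1 and by 0.69 within run 2, and neither within-run value was called.

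**Figure D3:**
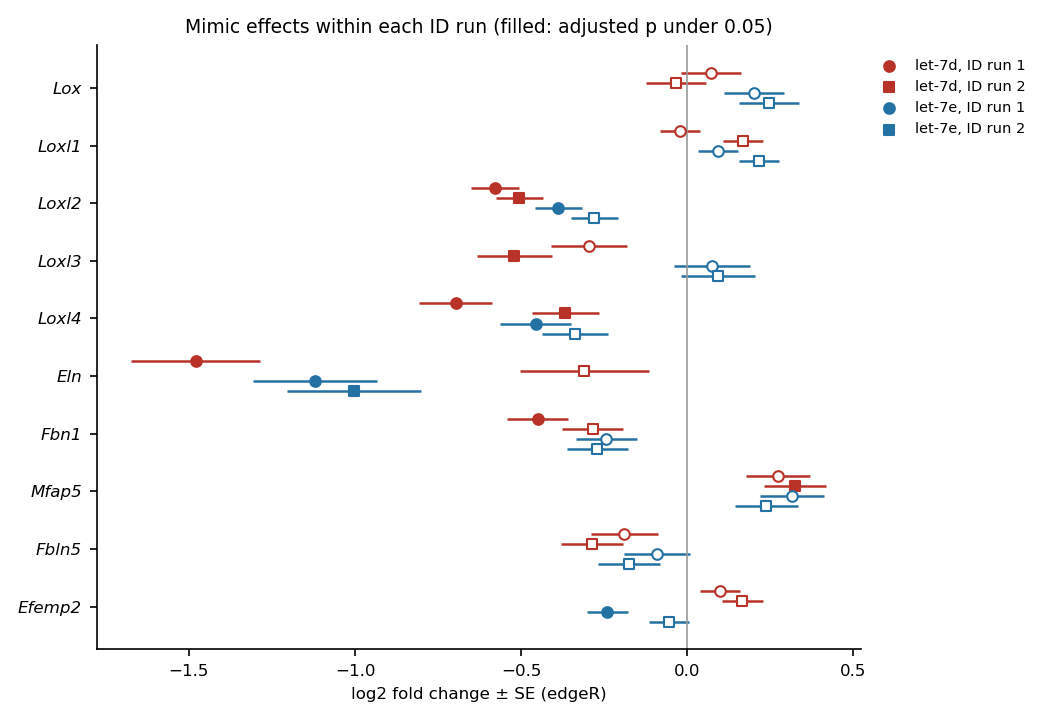
Each symbol is a log2 fold change against control with its SE within ID run 1 (circles) or ID run 2 (squares), red for let-7d and blue for let-7e, filled where the adjusted p is under 0.05. The let-7d symbols of Eln stand apart at -1.48 and -0.31, while those of Loxl2 stand at -0.58 and -0.51.

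With 2 libraries of a group in each run, the calls within runs were fewer. With let-7d, Loxl2, Loxl4, Eln and Fbn1 were called in run 1 and Loxl2, Loxl3, Loxl4 and Mfap5 in run 2, where 10.9% and 8.56% of all genes were called. With let-7e, Loxl2, Loxl4, Eln and Efemp2 were called in run 1 and Eln alone in run 2, where 7.12% and 2.48% of genes were called. All 7 members called over both runs with let-7d, and all 6 with let-7e, had the same sign within each run. The calls came from the same libraries, which makes such agreement likely, so it is no independent check.

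Fibrillin-1 (Fbn1, chr2:125300594-125507993, minus strand) forms the backbone of the microfibril. Run 1 libraries held 1760 and 1660 CPM in control, 1280 and 1230 with let-7d and 1390 and 1500 with let-7e. Run 2 gave 898 and 1030 CPM in control, 727 and 860 with let-7d and 772 and 830 with let-7e. Mimic and control libraries did not overlap in either run. Fbn1 fell by 0.37 ± 0.068 (SE, log2) with let-7d (edgeR adjusted p = 0.00183) and by 0.26 ± 0.068 with let-7e (adjusted p = 0.0260). The let-7e call was lost without control replicates 1, 2 or 4 (edgeR adjusted p = 0.0684, 0.0562 and 0.0679) and without let-7e replicates 1, 3 or 4 (edgeR adjusted p = 0.0792, 0.0791 and 0.0621). The predicted gene Gm9913 on the opposite strand covers 2442 of the 12128 exon bases of Fbn1, so its reads may be counted in either.

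Mfap5 (chr6:122505845-122529290, plus strand), the microfibril-associated glycoprotein that binds fibrillin, was the one member to rise with both mimics. In run 1 levels were 328 and 286 CPM in control, 365 and 379 with let-7d and 377 and 389 with let-7e. The run 2 values were 858 and 728 CPM in control, 1060 and 926 with let-7d and 983 and 887 with let-7e. Each mimic library was above the controls of its run, and run 2 was above run 1 in all groups. The log2 fold change was 0.30 ± 0.067 with let-7d (edgeR adjusted p = 0.00654) and 0.28 ± 0.067 with let-7e (adjusted p = 0.0167), and the mimics differed by 0.02 with an interval of -0.13 to 0.18. The let-7e call was lost without control replicate 2 (edgeR adjusted p = 0.0504) and without let-7e replicate 1 or 2 (edgeR adjusted p = 0.0504 and 0.0633).

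Fibulin-5 (Fbln5, chr12:101746565-101819055, minus strand) binds tropoelastin and Loxl1 and guides elastin onto microfibrils. The run 1 values were 98.2 and 80.1 CPM in control, 77.6 and 79.2 with let-7d and 79.3 and 88.6 with let-7e. Corresponding run 2 levels were 251 and 262 CPM in control, 192 and 229 with let-7d and 228 and 227 with let-7e. The let-7d libraries lay below the controls in both runs, narrowly so in run 1, and the let-7e libraries did so only in run 2. Fbln5 fell by 0.24 ± 0.068 (SE, log2) with let-7d (edgeR adjusted p = 0.0242), and was at -0.14 ± 0.068 with let-7e (adjusted p = 0.249). The let-7d call was lost without control replicate 1 or 4 (edgeR adjusted p = 0.0793 and 0.0650) and without let-7d replicate 1 or 3 (edgeR adjusted p = 0.0589 and 0.0846). It was also lost with only the control and let-7d libraries fitted (edgeR adjusted p = 0.0650). The mimics differed by -0.10, with an interval of -0.26 to 0.051, so the let-7d change is not shown to be larger than that with let-7e.

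Efemp2 (chr19:5473954-5482517, plus strand) encodes fibulin-4, which binds the Lox precursor and is needed for elastic fibre assembly. Run 1 libraries held 360 and 341 CPM in control, 374 and 376 with let-7d and 298 and 295 with let-7e. The second run's levels were 350 and 344 CPM in control, 391 and 389 with let-7d and 329 and 340 with let-7e. In both runs let-7d lay above control and control above let-7e, without overlap. Neither difference from control was called: the log2 fold change was 0.13 ± 0.048 with let-7d (edgeR adjusted p = 0.0751) and -0.15 ± 0.048 with let-7e (adjusted p = 0.0702). The first passed without control replicate 1 (edgeR adjusted p = 0.0320) and with genes under a mean of 1 CPM left out (edgeR adjusted p = 0.0499), the second with DESeq2 (adjusted p = 0.0145).

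The direct comparison of the mimics on Efemp2 was called, at 0.28 ± 0.048 (SE, log2; edgeR adjusted p = 0.0394). Efemp2 was higher with let-7d in all 4 libraries than in any let-7e library. The call was lost without let-7d replicates 1 to 4 (edgeR adjusted p = 0.116, 0.146, 0.0809 and 0.115) and without let-7e replicates 1 to 3 (edgeR adjusted p = 0.130, 0.186 and 0.107), while the difference stayed between 0.26 and 0.31. Of the 3788 exon bases of Efemp2, 173 are shared with Mus81 on the opposite strand. Between the mimics, libraries did not overlap within either run for 5 members: Efemp2, higher with let-7d, and Lox, Loxl1, Loxl2 and Loxl3, lower with it. This held for 12.9% of all genes. Set beside the sequences, Loxl3 and Efemp2 each carry a 7mer-A1 match that both mimics share, Loxl3 fell with let-7d, and Efemp2 was not called lower with either mimic over both runs.

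Across the 4 members with a 3′ UTR match, Loxl4 fell with both mimics, Loxl3 and Fbln5 were called lower with let-7d, and Efemp2 was not called against control. Among the 6 without one, Loxl2, Eln and Fbn1 fell with both mimics, Mfap5 rose with both, Lox rose with let-7e, and Loxl1 was not called. Members with and without such a match stand among those that fell. Of those without one, Fbn1 has matches in its coding sequence, and the 3′ UTR of Loxl2 holds the shorter 6mer TACCTC, which was not counted. Such 6mers also lie in the 3′ UTRs of Lox, Loxl3 and Fbln5 and in the coding sequences of Fbn1 and Efemp2. Whether any of these matches acts was not tested.

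The members also differed between the runs. Comparing run 2 with run 1 over all groups, 9 of 10 members were called, in a comparison where 81.7% of all genes were. Fbln5 at 1.46 ± 0.056 and Mfap5 at 1.36 ± 0.056 (log2 ± SE) were higher in run 2, as were Lox at 0.47, Loxl4 at 0.30 and Loxl3 at 0.20. Eln at -0.87 ± 0.17 and Fbn1 at -0.78 ± 0.056 were lower, as were Loxl2 at -0.39 and Loxl1 at -0.33. Efemp2, at 0.07 ± 0.039, was not called (edgeR adjusted p = 0.101). The fat cell markers moved with the run too: all 11 were called lower in run 2, at a median of -2.48, and 8 of 9 fibroblast and precursor markers were called higher, at a median of 1.43. Of 13 macrophage markers 12 were called lower, at a median of -3.09, and of 11 smooth muscle and pericyte markers 6 were called higher and 4 lower, at a median of 0.64. The part of these shifts in the members' differences between runs was not tested, and in bulk RNA fewer cells of a type and less RNA per cell cannot be told apart.

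Some cell type markers were called with the mimics as well. Among all genes, 9.81% were called lower and 6.41% higher with let-7d, and 5.69% and 3.81% with let-7e. Of 11 fat cell markers, 1 was called higher and 1 lower with let-7d, and 1 higher and 0 lower with let-7e, at medians of -0.12 and -0.06. Of 11 smooth muscle and pericyte markers, 4 were called lower and none higher with each mimic, at medians of -0.27 and -0.26. Their summed level, most of it Acta2, was 4035 to 5090 CPM in control, 3615 to 3754 with let-7d and 3404 to 3696 with let-7e in run 1. Run 2 levels were 7021 to 7389, 5556 to 6104 and 5907 to 6018 CPM. The summed level thus lay below control with both mimics in both runs, as Eln, Loxl2, Loxl4 and Fbn1 did. Mfap5 lay above control with both mimics, Lox and Loxl1 with let-7e and Efemp2 with let-7d. Between runs, the summed level in control was higher in run 2, and the control mean of Loxl4 went from 32.5 to 36.4 CPM. The control mean of Eln went down from 54.4 to 22.45 CPM, that of Fbn1 from 1710 to 966 and that of Loxl2 from 654 to 478. Vascular smooth muscle is a well-known source of elastin, and the part of these cells in the result was not tested.

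Over all genes, 6.41% were called higher and 9.81% lower with let-7d, and 3.81% and 5.69% with let-7e. Fibroblast and precursor markers, led by Dcn and Pdgfra, were called higher for 4 and lower for 2 of 9 with let-7d. With let-7e 3 of these markers were called higher and 2 lower. Their summed level in run 1 was 983 to 1052 CPM in control, 1194 to 1309 with let-7d and 1234 to 1236 with let-7e. Run 2 had 1747 to 2383, 2278 to 2705 and 2066 to 2145 CPM, where control overlaps each mimic and let-7d lay above let-7e. Of 13 macrophage markers, led by Lyz2 and Cd68, 2 were called higher with let-7d and none with let-7e. Their summed level in run 1 was 336 to 342 CPM in control, 312 to 332 with let-7d and 241 to 363 with let-7e. In run 2 it was 31.0 to 41.5 CPM in control, 67.4 to 151 with let-7d and 51.9 to 78.9 with let-7e, so that the let-7d libraries lay below control in one run and above it in the other. No endothelial or mesothelial marker was called with either mimic by edgeR. Their part in the members' differences was not tested.

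The wider pathway was read from 4 lists. The counts of each list stand beside these shares of all genes: 6.41% called higher and 9.81% lower with let-7d, and 3.81% and 5.69% with let-7e. Of 18 other elastic fibre and microfibril genes tested, 5 rose and 3 fell with let-7d and 3 rose and 2 fell with let-7e, at medians of 0.04 and -0.02 on the log2 scale. Fbn2, a second fibrillin, fell by 0.39 ± 0.12 (SE) with let-7d (edgeR adjusted p = 0.0409) and by 0.74 ± 0.12 with let-7e (adjusted p = 0.00150). Ltbp2, a latent TGF-beta binding protein that sits on microfibrils, rose by 0.19 ± 0.060 with let-7d (edgeR adjusted p = 0.0430) and by 0.33 ± 0.060 with let-7e (adjusted p = 0.00275). Efemp1, which encodes the related fibulin-3, rose by 0.60 ± 0.12 with let-7d (edgeR adjusted p = 0.00321) and was at 0.30 ± 0.12 with let-7e (adjusted p = 0.138). Vcan, a proteoglycan that binds microfibrils, fell by 0.55 ± 0.085 with let-7d (edgeR adjusted p = 0.000456) and was at -0.23 ± 0.084 with let-7e (adjusted p = 0.0983). With single libraries left out in turn, 2 to 5 rose and 1 to 3 fell with let-7d, fewest rising without let-7d replicate 4, and 2 to 4 rose and 1 to 3 fell with let-7e.

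Of 9 genes that process or supply the oxidases, 1 rose and 2 fell with let-7d and 1 rose and 1 fell with let-7e. Bmp1, the proteinase that cleaves the propeptide from the Lox precursor, was the riser in both, by 0.32 ± 0.050 (SE, log2) with let-7d (edgeR adjusted p = 0.000496) and by 0.34 ± 0.050 with let-7e (adjusted p = 0.000548). Tll1, a related proteinase, fell by 0.55 ± 0.14 with let-7d (edgeR adjusted p = 0.0151), and Postn, a matrix protein that supports Lox activation, by 0.27 ± 0.069 (adjusted p = 0.0136). With let-7e they were at -0.12 and -0.06 and not called. Slc31a1, the copper importer of the cell surface, fell by 0.17 ± 0.046 with let-7e (edgeR adjusted p = 0.0297) and was at -0.12 with let-7d (adjusted p = 0.0869). With let-7e no gene of this list was called lower without control replicate 1 or 3 or without let-7e replicate 1, 2 or 4.

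Of 6 fibrillar collagen genes, the other substrates of the oxidases, Col5a1 and Col11a1 fell with let-7d and Col5a1 with let-7e, and none rose. Col5a1 fell by 0.60 ± 0.074 (SE, log2) with let-7d (edgeR adjusted p = 7.62e-05) and by 0.34 ± 0.074 with let-7e (adjusted p = 0.00835). Col11a1 fell by 0.57 ± 0.14 with let-7d (edgeR adjusted p = 0.0116). The abundant genes Col1a1, Col1a2 and Col3a1 were not called with either mimic, with values from -0.06 to 0.12.

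Among 11 genes for proteases and glycosidases that act on elastin or its chaperone complex, 3 rose and 2 fell with let-7d, and 2 rose and 3 fell with let-7e. The cathepsins Ctsl and Ctsk, which can degrade elastin, rose with both mimics. Ctsl rose by 0.55 ± 0.088 (SE, log2) with let-7d (edgeR adjusted p = 0.000537) and by 0.37 ± 0.087 with let-7e (adjusted p = 0.0148), and Ctsk rose by 0.39 ± 0.070 (adjusted p = 0.00121) and by 0.32 ± 0.070 (adjusted p = 0.00945). Mmp14, the membrane-bound collagenase, fell by 0.56 ± 0.059 with let-7d (edgeR adjusted p = 2.25e-05) and by 0.45 ± 0.059 with let-7e (adjusted p = 0.000195). Ctsa, the protective protein of the elastin receptor complex, fell by 0.21 ± 0.067 with let-7d (edgeR adjusted p = 0.0393) and by 0.27 ± 0.067 with let-7e (adjusted p = 0.0175). No gene of the 4 lists was called between the mimics by edgeR. With single libraries left out in turn, between 2 and 4 rose and 1 or 2 fell with let-7d, and 1 or 2 rose and 1 to 3 fell with let-7e, the fall with let-7e being 1 without control replicates 1 or 2 or let-7e replicate 3.

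**Figure D4:**
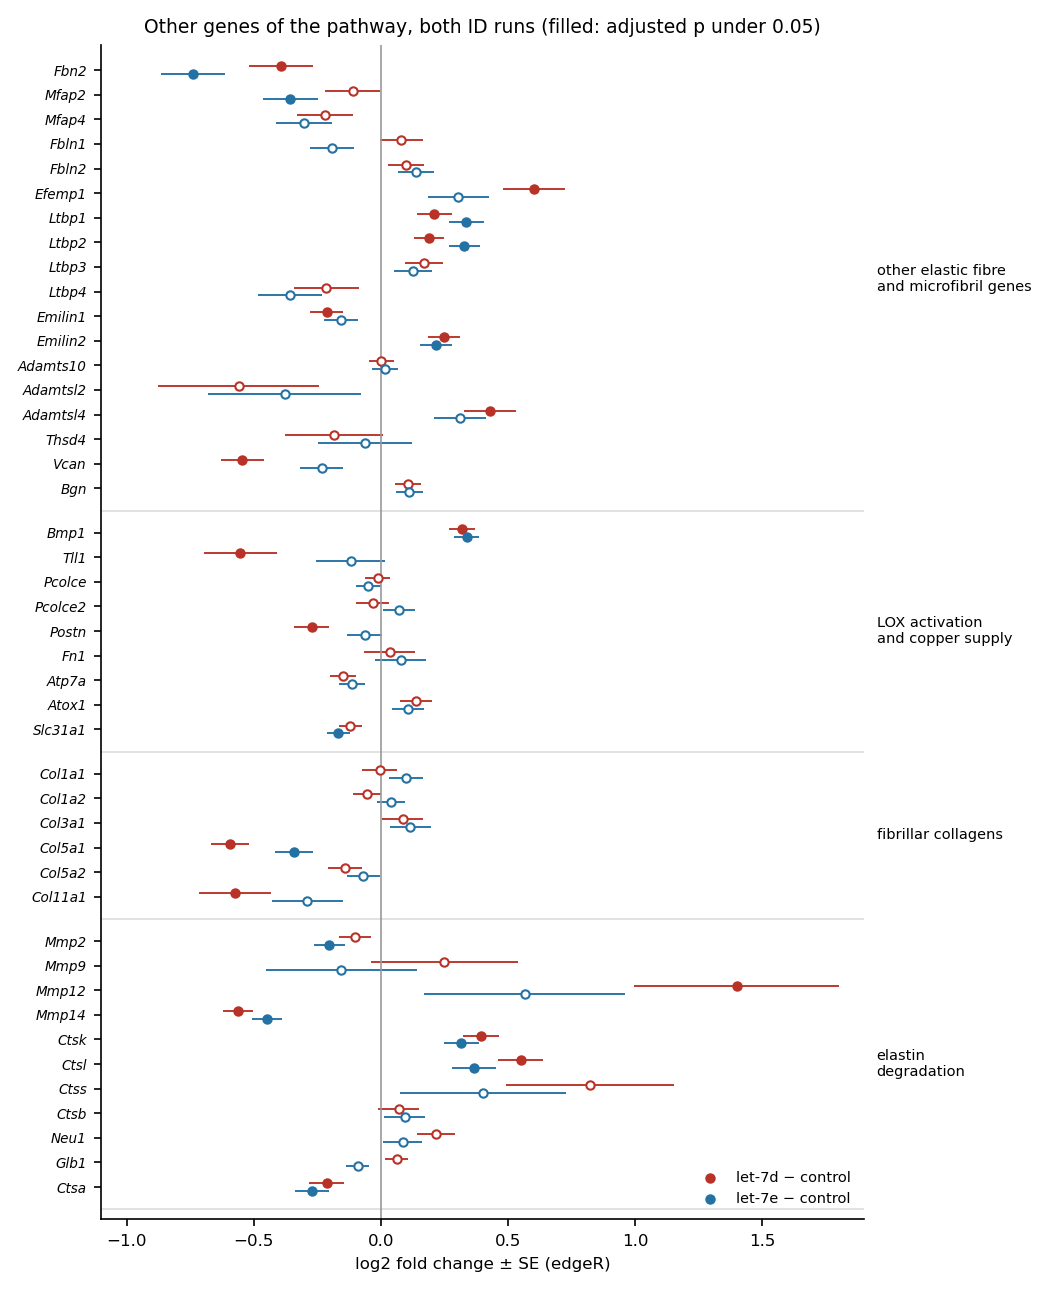
Each point is a gene's log2 fold change against control with its SE over both runs, red for let-7d and blue for let-7e, filled where the adjusted p is under 0.05, for the 4 lists of other pathway genes. Among the genes named in the text, Bmp1, Ltbp2, Ctsl and Ctsk are filled to the right of 0 with both mimics. Fbn2, Col5a1, Mmp14 and Ctsa are filled to the left of it with both.

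As a description of pattern, the genes most like each member were taken by Pearson's r of log2 CPM centred within each run, over 12 libraries that share the group structure and, within a run, the same controls. For Loxl2 they were Tnfaip1 (0.987), Lrrc32 (0.986) and Tmem164 (0.984). For Loxl4 they were Zfand3 (0.978), Man2a1 (0.974) and the member Fbn1 (0.97), and for Fbn1 they included Map4 (0.978) and Loxl4 (0.97). The genes most like Eln were Gucy1a1 (0.969), Trabd2b (0.967) and Matn2 (0.95), and those most like Mfap5 were Extl2 (0.975), Fundc1 (0.972) and Tmem59 (0.969). The nearest to Lox was Stt3a (0.939) and the nearest to Loxl1 Nubp2 (0.95). Loxl4 and Fbn1 are thus among the 3 nearest genes of each other, and no other 2 members are.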

How the data were processed

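Total RNA of 12 libraries was sequenced on an Illumina NovaSeq instrument, per the labels. The table that the authors deposited holds raw counts of each Ensembl gene as whole numbers. The submitters' processing notes name STAR and GRCm38.p6. How reads were counted, by strand or not, and the low-count threshold are not given. A second deposited table, named RPKM, was not used. Symbols, exon lengths and 3′ UTRs came from GENCODE vM21 (15742 of 15754 identifiers matched).

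Counts were scaled by TMM. All 12 libraries entered 1 fit of the edgeR (4.0.16, R 4.3.3) quasi-likelihood model, with terms for group and ID run (8 residual degrees of freedom), and filterByExpr removed 0 genes. Effects within and between runs came from a model with a mean for each group and run (6 residual degrees of freedom). Tests were two-sided and p-values adjusted after Benjamini and Hochberg over all genes, with calls made under 0.05. SE is the fold change divided by the root of F, and 95% intervals follow from it and the residual degrees of freedom alone. The tests also draw on the spread of other genes, so an interval can include 0 at an unadjusted p under 0.05. The let-7d effect by run on Loxl1 is such a case, with an interval of -0.019 to 0.397 (edgeR unadjusted p = 0.0424). Over all genes the median SE was 0.0846 (let-7d) and 0.0837 (let-7e). The fit was tried on simulated counts with 200 changed genes. Those counts had no difference between runs, so this trial does not cover the run term. Likeness used log2 CPM with a prior count of 2, over genes at a mean log2 CPM of at least 2. Alternatives were DESeq2 1.42.0, limma-voom 3.58.1, other scalings and filters, single runs and libraries left out.

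The members, lists, tests and named genes (all members, the 4 called genes with the smallest p of each pathway list and the 3 genes most like each member) were chosen with earlier results of these data known. One gene that this rule names is not reported here. Col1a1, Col1a2 and Col3a1 are named outside that rule, after their values were seen. The design text gives n = 6, and the 4 libraries listed per group were used.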

Additional observations from a re-analysis of the deposited data

Results flagged for a closer look

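In 1 of 30 sets of 4 libraries (10 members in 3 groups), 1 library stood far from the rest: Loxl3 with let-7e, where replicate 3 had 194.3 CPM and the other libraries 134 to 143 CPM. Its gap to the next library, as a share of the range, was above Dixon's 95% critical value. Chance flags about 1 set in 20, and the sets span both ID runs. Without that library Loxl3 was at -0.03 on the log2 scale with let-7e against control, and at -0.38 in let-7d against let-7e (edgeR adjusted p = 0.103).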

How the results depend on the processing

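Against the 7 members called with let-7d, 4 were called in ID run 1 alone, 4 in ID run 2 alone and 0 with no run term, and over all genes 2555 calls became 1348 in run 2 and 7 with no run term. With let-7e the 6 members became 1 in run 2 and 0 with no run term, and 1496 genes became 390 and 0. Between the mimics the 2 members became 0 in either run alone, with the replicate block and with no run term. The 24 genes became 122 with DESeq2, 1 in run 1, 10 in run 2, 98 with only the 2 groups fitted, 5 with the replicate block and 1 with no run term. Genes whose let-7d effect differed by run numbered 38, or 194 with DESeq2, 16 with limma-voom and 19 above a mean of 1 CPM. For let-7e it was 1, or 52 with DESeq2 and 0 with limma-voom.

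With each library left out in turn, members called ranged from 6 to 7 with let-7d, 3 to 6 with let-7e, 0 to 2 between the mimics, 9 to 10 between runs, and 0 to 1 and 0 to 0 for the effects by run. All genes called ranged from 1781 to 2535, 844 (without let-7e replicate 1) to 1606, 3 (without let-7d replicates 1, 2 or 4 or let-7e replicates 2 or 3) to 38 (without control replicate 3), 12589 to 12798, 0 (without let-7d replicate 2) to 219 (without control replicate 1), and 0 to 153 (without control replicate 1), in that order.

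Signs turned in these cases, none of them called. In run 1 alone, Eln was at -0.36 and Mfap5 at -0.042 between the mimics and Loxl1 at -0.021 with let-7d, and in run 2 alone Lox was at -0.034 with let-7d. With libraries left out, Eln between the mimics ran from -0.022 (without let-7e replicate 3) to 0.35, and Mfap5 from -0.026 (without let-7d replicate 3; -0.017 without let-7e replicate 4) to 0.049. The let-7e effect by run on Eln ran from -0.43 (without let-7e replicate 4; -0.010 without let-7e replicate 2) to 0.55. Lox with let-7d ran from -0.018 (without control replicate 2) to 0.056 and Loxl3 with let-7e from -0.027 (without let-7e replicate 3) to 0.15. The cause was not tested.

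Correlations between groups of same-numbered deviations from the group mean within a run ran from -0.065 to 0.188. With 2 libraries per group and run the 2 deviations mirror each other, so this check cannot exclude that replicate numbers pair the libraries. With the replicate block, Lox with let-7e (edgeR adjusted p = 0.0610), Loxl3 between the mimics (0.0600) and Efemp2 between the mimics (0.0599) were not called. The 4 members with a 3′ UTR match stayed 4 over all annotated transcripts. With 2 libraries per group and run, calls within a run are few. Over both runs, changes of several SE can go uncalled. Loxl1 with let-7e, at 0.15 ± 0.048 (SE, log2), had an edgeR adjusted p of 0.0584.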
